A study of Zea mays with 18 samples.

Results

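The step from stage S5-6 to stage S7 was compared between maize anthers of 2 genotypes. Plants carrying an active ZmCCT10 transgene are called ZmCCT(+) and non-transgenic control plants ZmCCT(-), as the labels name them. The contrast is a difference of differences: the change from S5-6 to S7 in ZmCCT(+) minus the change over the same stages in ZmCCT(-). It used 12 of the 18 RNA-seq libraries of the series, 3 each of S5-6 ZmCCT(-), S7 ZmCCT(-), S5-6 ZmCCT(+) and S7 ZmCCT(+), and left out the 6 libraries of S3-4. The question is whether transgenic anthers changed between these stages as control anthers did. The sources used here do not give the maize line, the promoter of the transgene, the number of transgenic events or the plants behind each library. The p-values therefore describe library-to-library spread, part or all of which may be technical.

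The anther makes the pollen of maize. In its locules the meiocytes go through meiosis while the tapetum, the innermost wall layer, feeds them and later supplies the pollen coat. Maize anthers are known for microRNAs of the miR2118 and miR2275 families, which trigger phased small RNAs before and during meiosis. ZmCCT10 encodes a protein with a CCT domain and is a photoperiod gene: in long days it holds back the flowering of maize.

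The 12 libraries held between 14846974 and 23652182 counts, and 23996 of the 45578 listed genes had enough counts to be tested. In a principal component analysis of the 1000 genes with the highest variance, component 1 (57.9% of the variance) set the S7 ZmCCT(+) libraries, at 79.8 to 80.6, apart from the other 9, at -43.7 to 0.488. Component 2 (32% of the variance) set S5-6 ZmCCT(+), at 62.6 to 64.3, apart from the rest, at -23.5 to -19.1. Genes are given by identifier, because neither the deposited tables nor the gene table used here pairs the 43789 Zm00001d identifiers with names. ZmCCT10 itself and the marker genes of tapetum and meiocytes could therefore not be looked up, and the genotype and tissue labels were not checked by them. Coordinates were copied from the deposited tables, and no source used here names their build.

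The change from S5-6 to S7 differed between the genotypes for many genes. Over all genes tested, the median size of the step was larger in transgenic anthers. The difference was called for 15077 of 23996 genes, or 62.8%, by edgeR's quasi-likelihood test with a threshold of 0.05 on the adjusted p. It was at least 2-fold higher in ZmCCT(+) for 1771 genes (7.38%) and at least 2-fold lower for 2276 (9.48%), and beyond 8-fold for 169 and 294. These counts add a size threshold to a test against no difference, and a test against a 2-fold minimum called fewer genes. A higher difference means that a gene rose more, or fell less, in ZmCCT(+) than in ZmCCT(-). The median difference over all genes was 0.01 on the log2 scale. The replicates varied little, with an estimated coefficient of variation of 3.05%, so small differences passed. With an assumed 20% in edgeR's likelihood ratio test 4192 genes were called, with 1633 higher and 2110 lower by 2-fold or more. Lower differences did not outnumber higher ones when TPM was tested in place of counts (1485 higher and 1454 lower with limma-trend on log2(TPM + 1)).

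The ZmCCT(-) step was the smaller of the 2. In ZmCCT(-) 44.5% of genes were called and in ZmCCT(+) 65.7%. In ZmCCT(-) 1.60% of genes rose at least 2-fold and 194 genes (0.808%) fell, while in ZmCCT(+) 1723 rose (7.18%) and 1492 fell (6.22%). The median size of the step, sign ignored, was 0.19 on the log2 scale in ZmCCT(-) and 0.34 in ZmCCT(+). Of the 4047 genes (16.9%) with a difference of at least 2-fold, 3524 (87.1%) had the larger step in ZmCCT(+). Most of these genes thus moved further in transgenic anthers than in controls. They were chosen by the difference of the 2 steps. Over all genes the ZmCCT(+) steps spread more widely, with an SD of 1.06 on the log2 scale against 0.406 in ZmCCT(-). Part of the 87.1% therefore follows from the choice, and the share over all genes was not counted.

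**Figure D1:**
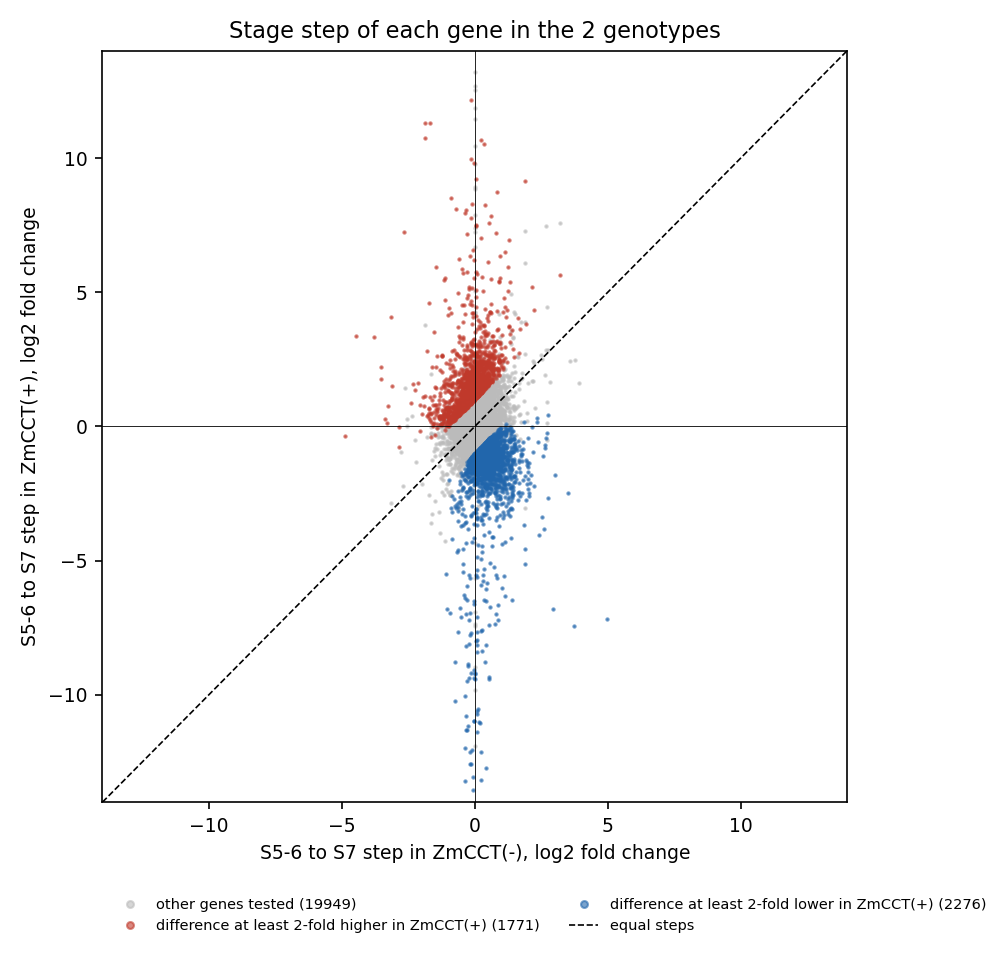
Each point is 1 of 23996 genes, with its log2 fold change from S5-6 to S7 in ZmCCT(-) on the x axis and in ZmCCT(+) on the y axis. Red points have a difference of at least 2-fold higher in ZmCCT(+) (1771), blue points at least 2-fold lower (2276), and the cloud is taller than it is wide. Points at the top and bottom edges include genes with no count in a group, whose fitted values depend on the prior count.

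Sorted by the genotype whose own step was called and at least 2-fold, 1233 of the 1771 genes with a higher difference moved in ZmCCT(+) alone, with a median step of 1.64 on the log2 scale there and 0.02 in ZmCCT(-). Of the 2276 with a lower difference, 1150 moved in ZmCCT(+) alone, with median steps of -1.43 and 0.30. The ZmCCT(-) step alone passed for 89 and 98. The genotypes moved in opposite directions for 31 genes that rose in ZmCCT(+) and fell in ZmCCT(-), and for 153 that fell in ZmCCT(+) and rose in ZmCCT(-). Both moved in 1 direction for 30 and 1. In the remaining 1262 genes neither step reached 2-fold, and in 839 of these both steps were called with opposite signs. With the stricter low-count filter, which asks for a mean of 50 counts and 1 CPM in 9 libraries, 1499 genes moved in ZmCCT(+) alone, 60 in ZmCCT(-) alone and 76 in opposite directions.

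Read by stage, the difference more often came with a gap between genotypes at S5-6 than at S7. Of the genes with a higher difference, 756 were at least 2-fold lower in ZmCCT(+) at S5-6 alone, and 337 were at least 2-fold higher at S7 alone. Of those with a lower difference, 765 were higher in ZmCCT(+) at S5-6 alone and 424 were lower at S7 alone. A turn of sign between the stages was seen for 50 genes that went from lower to higher in ZmCCT(+) and for 184 that went from higher to lower. Another 107 and 55 differed in 1 direction at both stages, and 521 and 848 were not 2-fold apart at either. The genotype effects at S5-6 and S7, called for 65.5% and 56.6% of genes, share no library. Of the 1343 (5.60%) genes at least 2-fold higher in ZmCCT(+) at S5-6, 12.1% were higher and 13.7% lower at S7, where 3.0% and 5.46% of all genes were. Of the 1619 genes (6.75%) lower at S5-6, 3.09% were higher and 29.9% lower at S7.

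**Figure D2:**
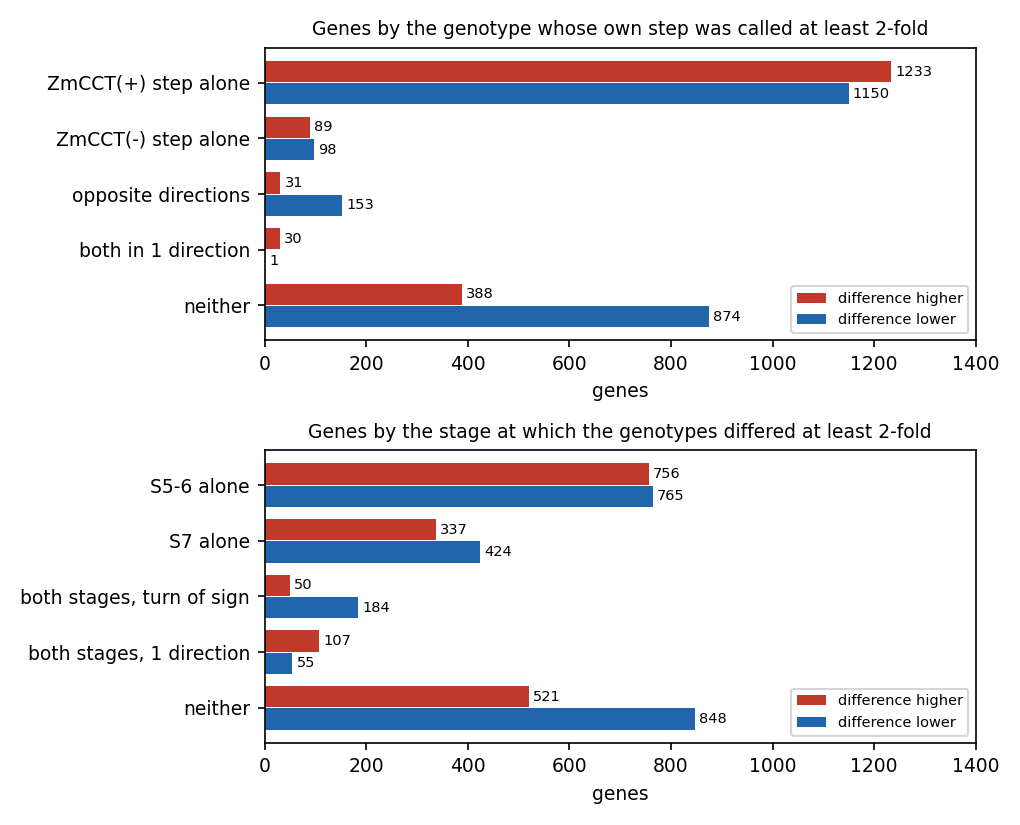
Bars count the genes with a difference of at least 2-fold, red for higher and blue for lower in ZmCCT(+). The upper panel sorts them by the genotype whose own S5-6 to S7 step was called at least 2-fold, where ZmCCT(+) alone leads with 1233 and 1150 genes, and the lower panel by the stage at which the genotypes differed at least 2-fold, where S5-6 alone leads the called stages with 756 and 765.

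Genes with a large step in control anthers were followed into the transgenic ones. Among the risers in ZmCCT(-), 79 (20.5%) rose at least 2-fold in ZmCCT(+) and 153 (39.7%) fell, where 7.18% and 6.22% of all genes did. Their median step was 1.31 on the log2 scale in ZmCCT(-) and -0.71 in ZmCCT(+). Among the 194 fallers, 31 (16%) rose and 18 (9.28%) fell in ZmCCT(+), with median steps of -1.30 and 0.22. The 2 steps share no library. Across the 23996 genes Pearson's r between them was -0.069 and Spearman's rho -0.137, as a description over genes that share abundance and libraries and are not independent replicates.

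The microRNA precursors hold the genes that carry a name in these tables. Of 154 listed, 5 had enough counts to test, and 2 of them were called, against 62.8% of all genes, with a median log2 difference of 0.14 over the 5 and 0.01 over all genes. The tables count reads over precursor loci in mRNA libraries, which is not a measure of the mature microRNA.

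zma-MIR2275c, on the plus strand of chromosome 10 at 70573557 to 70573793, is 1 of the miR2275 precursors, whose product starts phased small RNAs around meiosis. Its level in CPM, which is counts scaled to library size with TMM factors, was 22.01, 18.5 and 22.9 in the S5-6 ZmCCT(-) libraries and 24.2, 22.2 and 22.8 at S7. In ZmCCT(+) it was 3.68, 3.34 and 3.26 CPM at S5-6 and 0.475, 0.578 and 0.410 at S7. All ZmCCT(+) libraries lay below all ZmCCT(-) libraries, and the S7 ZmCCT(+) libraries below the S5-6 ones, while the control stages overlapped. The precursor fell 6.89-fold in ZmCCT(+) (log2 -2.79 ± 0.25 SE, edgeR adjusted p = 1.74e-19), and the ZmCCT(-) step of 0.12 ± 0.08 did not pass (edgeR adjusted p = 0.218). The log2 difference between the steps was -2.91 ± 0.26 SE (edgeR adjusted p = 6.18e-19), and the S7 ZmCCT(+) level rests on 25 counts over 3 libraries. At S3-4, outside the contrast, the precursor had 6 counts in ZmCCT(-) and 0 in ZmCCT(+).

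zma-MIR168a, on the minus strand of chromosome 5 at 76534928 to 76535031, gives rise to the microRNA that targets ARGONAUTE1 transcripts. It had 2.24, 2.84 and 2.63 CPM in S5-6 ZmCCT(-), 3.52, 4.48 and 3.85 in S7 ZmCCT(-), 2.25, 2.26 and 1.36 in S5-6 ZmCCT(+) and 4.34, 5.89 and 6.44 in S7 ZmCCT(+). It rose in both genotypes, in each with no overlap between stages, by 1.56-fold in ZmCCT(-) and 2.80-fold in ZmCCT(+) (edgeR adjusted p = 0.00338 and 6.49e-12). The difference was 0.85 ± 0.27 SE on the log2 scale (edgeR adjusted p = 0.00439) and was not called with an assumed spread of 20% (adjusted p = 0.126).

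The other 3 precursors had no called difference in edgeR, and their levels were low, between 0.234 and 1.42 CPM as group means. zma-MIR2275b (chromosome 4, 31734063 to 31734144), of the same family as zma-MIR2275c, had a log2 difference of -0.20 ± 0.50 SE (edgeR adjusted p = 0.749). It rose 1.76-fold in ZmCCT(-) (edgeR adjusted p = 0.0372), and its ZmCCT(+) step of 0.62 ± 0.36 did not pass (0.123). zma-MIR2118e (chromosome 10, 118740501 to 118740643), of the family that acts before meiosis, had a log2 difference of 0.50 ± 0.48 SE (edgeR adjusted p = 0.375) and rose 1.95-fold in ZmCCT(+) (edgeR adjusted p = 0.00971). Limma-trend on log2(TPM + 1) called that difference (0.49, adjusted p = 0.0182). zma-MIR156j (chromosome 7, 134663764 to 134663888), of the family that targets SPL transcription factors, had a log2 difference of 0.14 ± 0.71 SE (edgeR adjusted p = 0.876). Of the phased small RNA list, 11 precursors were listed and 3 tested, of which 1 was called lower and none higher, where 30.6% and 32.3% of all genes were.

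**Figure D3:**
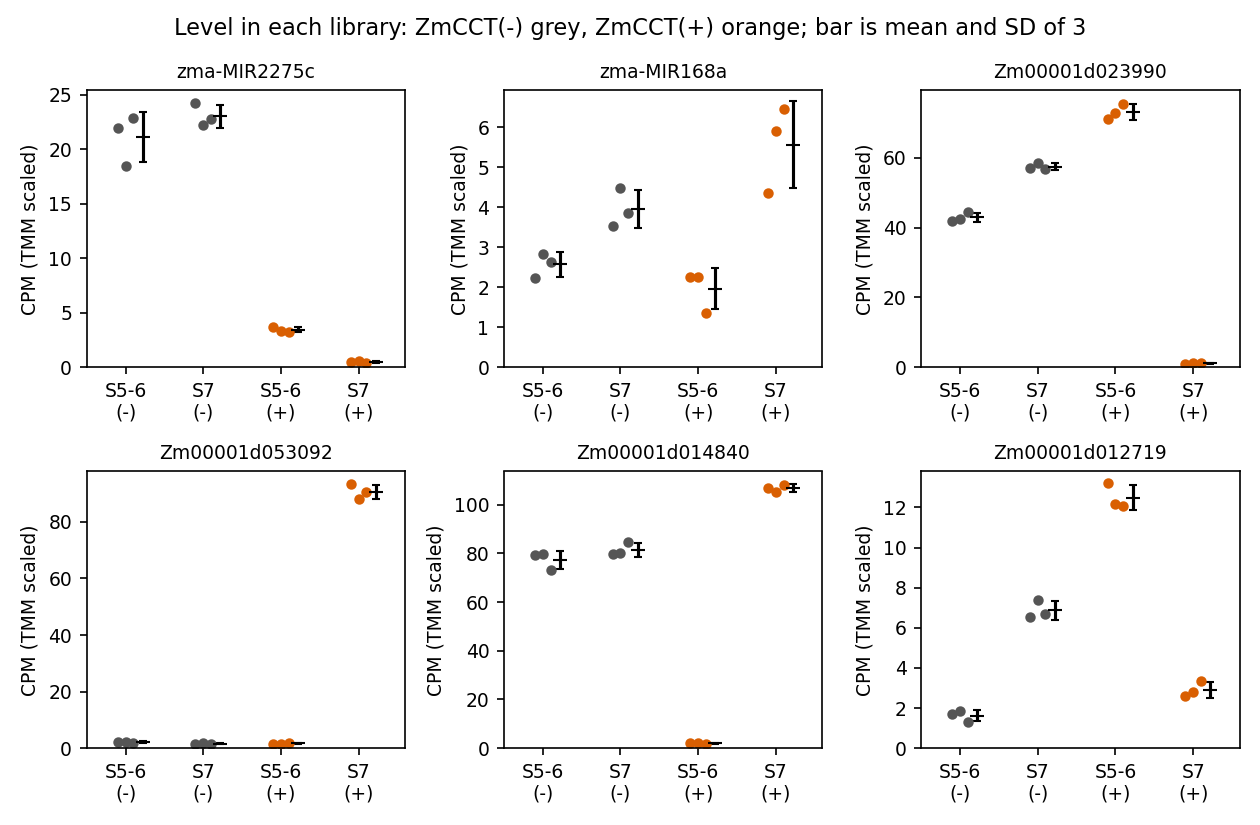
Points are single libraries in CPM on linear axes from 0, ZmCCT(-) in grey and ZmCCT(+) in orange, with the mean and SD of 3 libraries as a bar. In ZmCCT(+) zma-MIR2275c and Zm00001d023990 fell, Zm00001d053092 and Zm00001d014840 rose, and Zm00001d012719 moved against its rise in the controls.

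Among genes with at least 10 counts in each of the 12 libraries, the 2 lowest and 2 highest differences were all steps of transgenic anthers. Zm00001d023990 (chromosome 10, minus strand, 34692879 to 34700090) had 41.9, 42.3 and 44.5 CPM in S5-6 ZmCCT(-) and 57.1, 58.6 and 56.8 at S7. In ZmCCT(+) it went from 71.0, 72.9 and 75.6 CPM to 0.814, 1.21 and 1.17, so that the genotype with the higher level at S5-6 had the lower one at S7. The log2 difference was -6.50 ± 0.12 SE (edgeR adjusted p = 6.07e-82).

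Zm00001d029237 (chromosome 1, plus strand, 63318026 to 63324928) stayed between 219.7 and 240.5 CPM in the 6 ZmCCT(-) libraries. In ZmCCT(+) it was at 141, 131.4 and 135.2 CPM at S5-6 and at 1.36, 1.53 and 1.58 at S7. The log2 difference was -6.47 ± 0.08 SE (edgeR adjusted p = 1.89e-98).

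Zm00001d053092 (chromosome 4, plus strand, 213303554 to 213309579) was low in 3 of the 4 groups, with means of 2.18 ± 0.268 and 1.61 ± 0.235 CPM (SD, n = 3) in ZmCCT(-) at S5-6 and S7 and 1.72 ± 0.201 in S5-6 ZmCCT(+). The S7 ZmCCT(+) libraries were at 93.2, 88.0 and 90.5 CPM. The log2 difference was 6.16 ± 0.25 SE (edgeR adjusted p = 7.13e-46).

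Zm00001d014840 (chromosome 5, plus strand, 65058244 to 65059104) had its low group at S5-6. It was between 73.1 and 84.8 CPM in the 6 ZmCCT(-) libraries, at 2.05, 2.26 and 1.78 in S5-6 ZmCCT(+) and at 106.9, 105.1 and 108.2 in S7 ZmCCT(+). The log2 difference was 5.62 ± 0.09 SE (edgeR adjusted p = 6.23e-87), and the genotypes differed 37.6-fold at S5-6 and 1.31-fold at S7 (edgeR adjusted p = 1.84e-91 and 3.89e-16).

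Opposite steps in genes with at least 10 counts in each library were seen for 81 genes, 78 of which fell in ZmCCT(+) and rose in ZmCCT(-). How many genes had such counts, and how many of them rose or fell in each genotype, was not counted. Over all tested genes, 1.60% rose at least 2-fold in ZmCCT(-) and 0.808% fell, against 7.18% and 6.22% in ZmCCT(+). How far the 78 follow from these shares was not tested. Zm00001d012719 (chromosome 8, 179164455 to 179168169) had the largest pair of opposite steps. It rose from 1.69, 1.86 and 1.31 CPM to 6.54, 7.398 and 6.67 in ZmCCT(-), and fell from 13.2, 12.2 and 12.1 to 2.58, 2.79 and 3.34 in ZmCCT(+). Neither pair of stages overlapped, and the log2 difference was -4.17 ± 0.22 SE (edgeR adjusted p = 7.31e-36). Zm00001d037561 (chromosome 6, 129539187 to 129540972) did the reverse, from 2.37, 3.33 and 2.06 CPM to 0.705, 0.925 and 1.15 in ZmCCT(-) and from 1.18, 0.835 and 0.888 to 2.92, 2.47 and 2.40 in ZmCCT(+), a log2 difference of 2.89 ± 0.38 SE (edgeR adjusted p = 4.86e-11).

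Some genes were off in a single group, and that group was transgenic each time. Silent here means a sum of at most 3 counts across the 3 libraries of a group, and expressed means at least 10 counts in each of them. Silent in S7 ZmCCT(+) alone were 56 genes, 44 of them with no count, and silent in S5-6 ZmCCT(+) alone were 15, 7 of them with no count. No gene was silent in a single ZmCCT(-) group alone. In the S3-4 ZmCCT(+) libraries, outside the contrast, 34 of the 56 and 13 of the 15 were expressed, and 3 and 0 were silent. In S3-4 ZmCCT(-) 51 and 14 were expressed, and 0 and 0 were silent. Most of the 56 had fewer raw counts in S3-4 ZmCCT(+) than in S3-4 ZmCCT(-), though some had more (Zm00001d009022, 552 against 136). The share of all genes with fewer raw counts was not counted. In a fit of the S3-4 libraries 20.7% of tested genes were at least 2-fold lower in ZmCCT(+). The highest of the first set was Zm00001d024543 (chromosome 10, 77529347 to 77533684), at 191.2 ± 0.231 and 168.4 ± 4.66 CPM (SD, n = 3) in ZmCCT(-) at S5-6 and S7 and at 119.9 ± 5.06 in S5-6 ZmCCT(+). It had 1 count over the S7 ZmCCT(+) libraries against 7234 at S5-6, a ratio of 6090 with an exact 95% counting interval of 1090 to 241000. The highest of the second set was Zm00001d003690 (chromosome 2, 54515841 to 54521636), with 28.2 ± 1.28 and 25.3 ± 1.26 CPM in ZmCCT(-), no count in S5-6 ZmCCT(+) and 31.2 ± 2.27 CPM in S7 ZmCCT(+). The last step is at least 629-fold, against a floor of 3 counts over the 3 libraries (0.0497 CPM).

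The reverse pattern was looked for after these values were seen. Genes expressed in S7 ZmCCT(+) and silent in the other 3 groups numbered 26, genes expressed in S5-6 ZmCCT(+) alone 12, and there were none for either ZmCCT(-) group. At S3-4, 17 of the 26 were expressed in ZmCCT(+) and 25 were silent in ZmCCT(-). Where both ZmCCT(-) stages have no count the ZmCCT(-) step, and with it the difference, is undefined. There were 45 tested genes with no count in 2 or more groups, of which 3 were called at least 2-fold.

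Genes with a difference of at least 2-fold lay on all 10 chromosomes, as 6.15% to 8.64% of the tested genes of a chromosome for higher and 8.75% to 10.4% for lower differences. Most of these genes, 1411 with a higher and 1711 with a lower difference, had no neighbouring tested gene called in the same direction. A few longer runs were seen, and no test of run length was made. The longest run of neighbouring tested genes was on chromosome 3, from Zm00001d044461 to Zm00001d044489 (228815712 to 229579468), where all 15 tested of 26 listed genes had a lower difference. Together they had 33837 counts in S5-6 ZmCCT(+) and 52 in S7 ZmCCT(+), of which 44 came from the last gene. In ZmCCT(-) they had 30327 counts at S5-6 and 27668 at S7. In S7 ZmCCT(+) 13 of the 15 had 3 counts or fewer, and these are 13 of the 56 genes silent in that group alone. Each S7 ZmCCT(+) library held 16 to 18 counts for the whole stretch. At S5-6 the level in ZmCCT(+) was between 0.740 and 1.99 times that in ZmCCT(-), with a median of 1.01. At S3-4, outside the contrast, it was between 0.0469 and 1.15 times, with a median of 0.350.

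Zm00001d044461, the first gene of the run, had 62.9 ± 0.204 and 73.9 ± 1.19 CPM in ZmCCT(-) at S5-6 and S7, 63.5 ± 0.701 in S5-6 ZmCCT(+) and no count in S7 ZmCCT(+). It was at least 1070-fold lower there than at S5-6, against a floor of 0.0590 CPM. Zm00001d044489, the last, was low in all groups, at 1.46 ± 0.0799, 2.15 ± 0.148, 2.21 ± 0.140 and 0.877 ± 0.141 CPM, with a log2 difference of -1.90 ± 0.38 SE (edgeR adjusted p = 5.63e-06). The next longest runs held 7 genes on chromosome 4 (3614699 to 4110275), lower, and 5 each on chromosome 1, lower, and chromosome 8, higher.

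**Figure D4:**
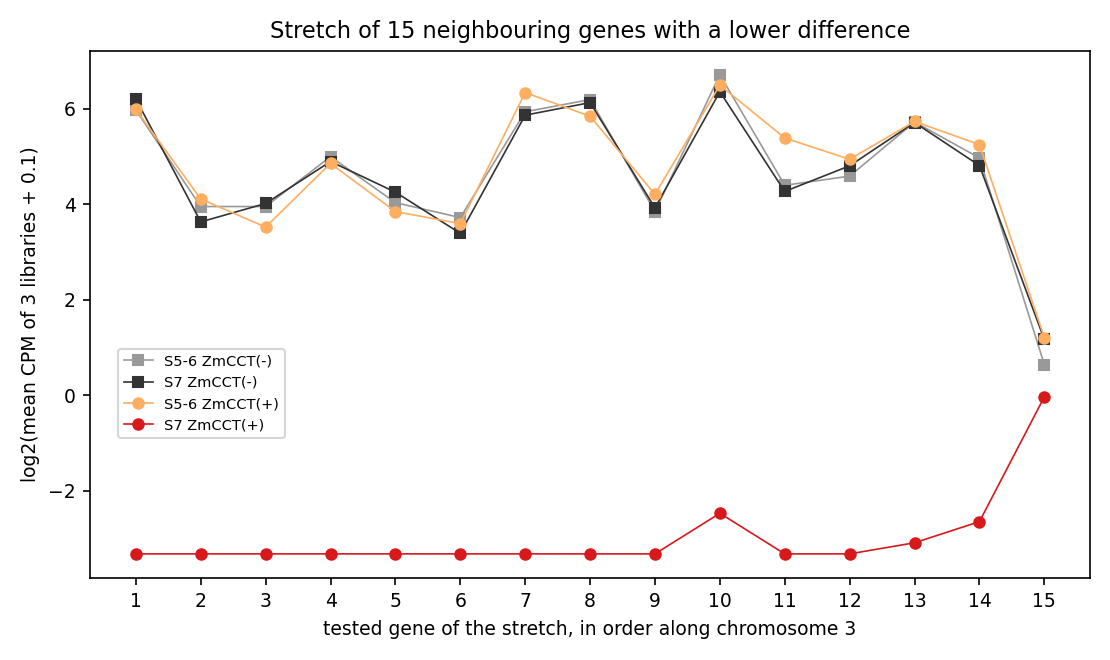
The x axis gives the 15 tested genes of the chromosome 3 stretch in order, and the y axis log2 of the mean CPM of 3 libraries plus 0.1. The S5-6 ZmCCT(+) levels are 0.740 to 1.99 times those of S5-6 ZmCCT(-), and 13 of the 15 S7 ZmCCT(+) points rest on 3 counts or fewer.

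The run on chromosome 8 went from Zm00001d008919 to Zm00001d008926 (25254637 to 25560483), with 5 tested of 9 listed genes. They held 1337 counts in S5-6 ZmCCT(+) and 3885 in S7 ZmCCT(+), and 1334 and 1318 in ZmCCT(-). Single genes differed within these totals: at S5-6 the level in ZmCCT(+) was between 0.592 and 4.07 times that in ZmCCT(-), with a median of 0.974, and at S7 between 2.15 and 14.7 times, with a median of 2.65. At S3-4, outside the contrast, they held 12649 counts in ZmCCT(+) and 1577 in ZmCCT(-), with ratios of levels between 0.847 and 157. Zm00001d008919 rose from 4.94 ± 0.747 to 13.4 ± 1.05 CPM (SD, n = 3) in ZmCCT(+) and was at 5.07 ± 0.749 and 5.05 ± 0.446 in ZmCCT(-), a log2 difference of 1.45 ± 0.19 SE (edgeR adjusted p = 3.88e-11). With limma-trend on log2(TPM + 1), which changes both the measure and the test, the log2 difference was -0.047 and was not called (adjusted p = 0.745). With limma-voom, which changes the test and keeps the counts, it was 1.44 and was called (adjusted p = 6.83e-10). Zm00001d008926 rose from 3.89 ± 0.671 to 15.2 ± 0.541 CPM in ZmCCT(+), with a log2 difference of 1.91 ± 0.18 SE (edgeR adjusted p = 1.12e-17).

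The genes with a difference of at least 2-fold were less abundant and shorter than the rest, as a description. Their median level over the 12 libraries was 7.12 CPM for higher and 5.55 CPM for lower differences, against 22.4 CPM for the other tested genes. Their median genomic span was 2454 and 2037 bases, against 3869. As a share of all counts, the 1771 genes with a higher difference took 3.29% ± 0.012 (SD, n = 3) in S5-6 ZmCCT(+) and 7.92% ± 0.035 in S7 ZmCCT(+), and 6.48% ± 0.039 and 6.10% ± 0.019 in ZmCCT(-). The 2276 with a lower difference took 7.88% ± 0.070 and 3.56% ± 0.031 in ZmCCT(+), and 4.44% ± 0.044 and 5.76% ± 0.037 in ZmCCT(-). Both sets were chosen by the difference in these same libraries, so the direction of these changes follows from the choice. In whole anthers, fewer cells of a type and less RNA per cell cannot be told apart.

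Non-coding RNA genes with an ENSRNA identifier were mostly of low level, and their counts and their summed level pointed different ways. Of 1635 listed, 94 were tested, with a median level of 0.933 CPM against 19.0 CPM for all genes. Of these, 8 were called higher and 26 lower, where 32.3% and 30.6% of all genes were. At least 2-fold higher were 5 and lower 25 of the 94, where 7.38% and 9.48% of all genes were, and the median log2 difference was -0.42, against 0.01 for all genes. The low-count filter can be passed through the 3 libraries of 1 group alone. A gene of low level may thus be tested because that group was high. How far such genes shaped these shares was not tested. The summed level of the 94 was 361 ± 1.88 CPM (SD, n = 3) in S5-6 ZmCCT(+) and 417 ± 58.5 CPM in S7 ZmCCT(+), with no overlap and with 1 S7 library, at 484 CPM, above the other 2. It was 464, 462 and 547 CPM at S5-6 and 447, 492 and 531 CPM at S7 in ZmCCT(-), with overlap. The 3 most abundant members, named after their values were seen, had positive log2 differences of 0.47 ± 0.23 SE (ENSRNA049479257, edgeR adjusted p = 0.112), 0.79 ± 0.14 SE (ENSRNA049479549, edgeR adjusted p = 0.000786) and 0.31 ± 0.86 SE (ENSRNA049478207, edgeR adjusted p = 0.783). The 2 with the lowest adjusted p, chosen after their values were seen, were ENSRNA049458826 and ENSRNA049461747, both on chromosome 5. ENSRNA049458826 had means of 3.16 and 5.94 CPM in ZmCCT(-) at S5-6 and S7 and 8.84 and 3.63 in ZmCCT(+), a log2 difference of -2.21 ± 0.22 SE (edgeR adjusted p = 9.93e-17). ENSRNA049461747 had 2.03 and 4.39 CPM in ZmCCT(-) and 5.92 and 2.7 in ZmCCT(+) (-2.23 ± 0.26 SE, edgeR adjusted p = 1.34e-13). The tables do not name the kind of RNA.

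The 6 libraries of S3-4, which the contrast does not use, were set beside it. In a fit of these libraries alone 19.5% of 23260 tested genes were at least 2-fold higher in ZmCCT(+) and 20.7% lower. Of the genes with a higher difference in the S5-6 to S7 step, 858 of 1665 tested in both (51.5%) were at least 2-fold higher in ZmCCT(+) at S3-4 and 156 (9.37%) lower. Of those with a lower difference, 765 of 1904 (40.2%) were lower at S3-4 and 357 (18.8%) higher. Over all 22672 genes tested in both, 17.9% were higher and 21.1% lower. Among genes with a higher difference, those with a gap at S7 alone were higher at S3-4 in 75.6% and lower in 5.19%, and those with a gap at S5-6 alone in 41.2% and 10.2%. Among genes with a lower difference, those with a gap at S7 alone were higher at S3-4 in 9.28% and lower in 51.5%, and those with a gap at S5-6 alone in 30.5% and 30.8%. Across the 22672 genes Pearson's r with the S3-4 genotype effect was 0.281 for the difference, 0.387 for the genotype effect at S7 and 0.0551 for that at S5-6, a description over genes that share their libraries.

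**Figure D5:**
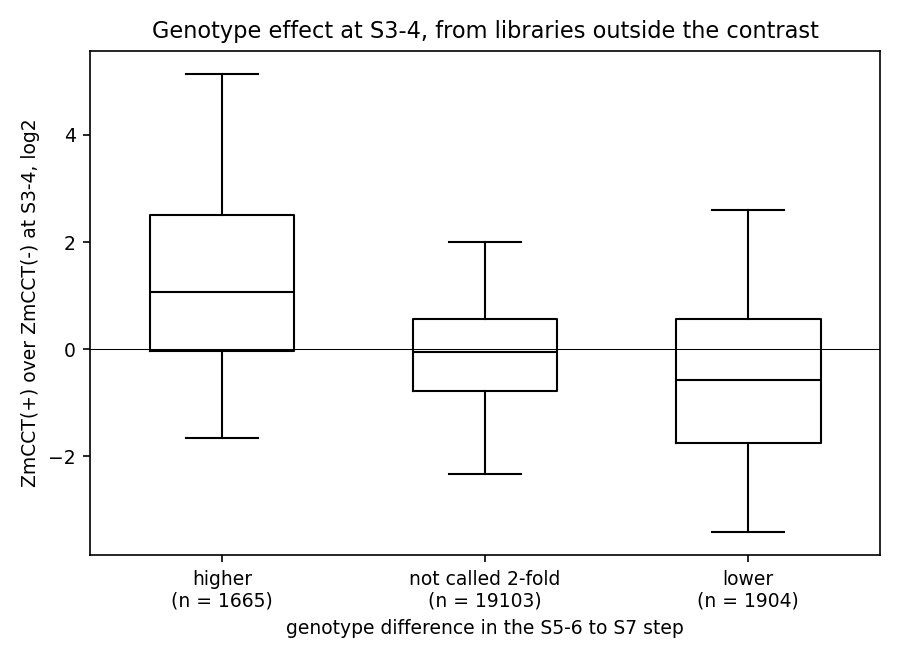
Boxes show the quartiles and median, and whiskers the 5th and 95th percentile, of the log2 genotype effect at S3-4 over genes, by the genotype difference in the S5-6 to S7 step. The median was 1.07 for the 1665 genes with a higher difference, -0.06 for the 19103 not called at 2-fold and -0.57 for the 1904 with a lower one.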

How the data were processed

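Raw counts per gene come from the deposited tables of each stage, and per the file headers and values they were not normalised. Tables of single libraries hold TPM, which the authors scaled within the library, and coverage, a depth signal that was not scaled between libraries, per the file headers. The submitters' processing notes name Bowtie2, StringTie and DESeq2. The sources used here give no versions, settings, strand counting, genome build or handling of reads from paralogs.

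The columns named WT and OE were read as ZmCCT(-) and ZmCCT(+). In 12 of 12 libraries the counts matched the coverage of their own sample best among the 3 samples of the group (r of 0.8943 to 0.9181). Samples of other groups were not compared. The low-count filter was filterByExpr of edgeR 4.0.16 under R 4.3.3 (minimum count 10, minimum total 15), which kept 23996 genes with 99.92% of the counts. After TMM scaling, 1 robust quasi-likelihood fit covered the 4 groups with 8 residual degrees of freedom. Benjamini-Hochberg adjustment ran over all tested genes, and an adjusted p below 0.05 was a call. Standard errors are the absolute log2 value over the square root of F. The S3-4 libraries had a fit of their own. Exact Clopper-Pearson intervals and floors of 3 counts over 3 libraries account for counting error only. Pairs of replicates differed by more than counting noise (chi-square over degrees of freedom, 1.57 to 2.06). The code was tested on simulated data.

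The genes, lists and contrast were chosen with earlier results of these data known. Named genes are each tested microRNA precursor, the 2 highest and 2 lowest differences among unnamed genes with 10 counts in each library, the clearest opposite step each way, the most abundant gene silent in each group alone, and both ends of the longest runs. Of the 43789 Zm00001d identifiers 0 matched the gene table, and of 18 lists 15 had no member found. Alternatives, tried 1 at a time, were size factors and the test of DESeq2 1.42.0, upper quartile scaling, voom and trend fits of limma 3.58.1 (TPM with 1 or 0.1 added), either no filter or a stricter one, all 18 libraries, an assumed spread of 20%, a replicate block, a 2-fold null and dropping single libraries.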

Additional observations from a re-analysis of the deposited data

Results flagged for a closer look

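For 14 named genes the S5-6 to S7 step differed between the genotypes by the test of the difference itself, edgeR's interaction test at an adjusted p below 0.05. Apart from the microRNA precursors, these genes were chosen by their values in this same contrast. Their calls therefore largely follow from the choice and are no separate evidence. The log2 differences, ZmCCT(+) minus ZmCCT(-), were -2.91 for zma-MIR2275c and 0.85 for zma-MIR168a. The genes with the lowest and highest values among those with counts in each library were Zm00001d023990 at -6.50, Zm00001d029237 at -6.47, Zm00001d053092 at 6.16 and Zm00001d014840 at 5.62. The genes with opposite steps were Zm00001d037561 at 2.89 and Zm00001d012719 at -4.17. The ends of the runs were Zm00001d008919 at 1.45, Zm00001d008926 at 1.91 and Zm00001d044489 at -1.90. The fitted values of Zm00001d003690 at 12.32, Zm00001d024543 at -11.96 and Zm00001d044461 at -13.42 depend on the prior count, since 1 group held at most 1 count. They are no measure of size.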

How the results depend on the processing

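Apart from the assumed spread of 20% (4192) and the test against a 2-fold minimum, the count of called genes stayed between 13517 and 15114 under the alternatives. It was between 14630 and 14795 without any 1 library. The stricter filter gave 1090 genes at least 2-fold higher in the interaction. It also gave 136 up and 46 down in the ZmCCT(-) step and 990 up and 878 down in the ZmCCT(+) step. Its classes were 1499 with the ZmCCT(+) step alone, 60 with the ZmCCT(-) step alone, 76 with opposite steps and 18 in 1 direction, then 977 with a gap at S5-6 alone, 370 at S7 alone, 82 at both in 1 direction and 102 with a turn of sign. That filter tests 19394 genes, which makes the counts smaller. Limma-trend on log2(TPM + 1) gave 1454 genes at least 2-fold lower in the interaction, 89 up and 68 down in the ZmCCT(-) step and 909 down in the ZmCCT(+) step. Its classes were 67 with the ZmCCT(-) step alone, 48 with opposite steps, 11 in 1 direction, 90 at both stages in 1 direction and 76 with a turn of sign. With 0.1 added in place of 1, limma-trend gave 1946 genes at least 2-fold lower in the interaction. It gave 260 up and 197 down in the ZmCCT(-) step and 1394 down in the ZmCCT(+) step. The same classes then held 178 with the ZmCCT(-) step alone, 139 with opposite steps and 29 in 1 direction. They held 167 at both stages in 1 direction and 184 with a turn of sign. These counts lay nearer to those of the main fit. The cause of the shifts was not tested. The test against a 2-fold minimum gave 894 higher and 1217 lower.

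Among named genes, zma-MIR2275b turned to 0.23 and 0.29 on the log2 scale with TPM pseudocounts of 1 and 0.1, and Zm00001d008919 to -0.047 and -0.050. Without single libraries zma-MIR156j ran from -0.22 to 0.90 and zma-MIR2275b from -0.56 to 0.27, neither called. The replicate numbers did not pair the libraries, with correlations of -0.134 to 0.0975 between libraries of the same number. The replicate block gave 15015 called genes and changed no call of a named gene. The median of all genes moved most with log2(TPM + 0.1), to 0.087.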
